A study of Mus musculus with 12 samples.

Results

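The immediate early genes are 10 genes that cells switch on within minutes of a stimulus, and that tissue handling can also switch on: Fos, Fosb, Jun, Junb, Egr1, Egr2, Egr3, Atf3, Ier2 and Dusp1. They were chosen by gene symbol, as 10 of the 55491 entries of the deposited gene tables. All 10 were among the 17909 genes that passed the filter on low counts. They were measured by RNA-seq of whole lungs from wild-type (WT) male C57BL/6J mice with an age label of 10 weeks, and every mouse in the 3 groups had received oropharyngeal bleomycin at 0.0125 U per mouse, a chemical lung injury that leads to fibrosis. The first group, Day 21 NP, had been given intravenous nanoparticles whose core was poly(lactide-co-glycolide) (PLG) under a coat of poly(ethylene-alt-maleic anhydride) (PEMA), 2 mg a dose in 5 daily doses between day 14 and day 18 after bleomycin. The second, Day 21 vehicle, had been given phosphate-buffered saline, and the third, Day 14, was taken before treatment and had the treatment label none. Each group had 4 libraries, labelled as 4 mice. No group without bleomycin was among the samples used here, so no value below is relative to an uninjured lung.

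Immediate early genes need no new protein synthesis for their induction. Signals that pass through MAP kinases, calcium and cAMP act on factors already bound at their promoters, among them serum response factor at CArG boxes and CREB at cAMP response elements (CREs), and the mRNAs are then removed quickly by decay. FOS and JUN proteins pair to form AP-1, the EGR proteins are zinc-finger transcription factors, ATF3 is a stress-induced member of the ATF/CREB family, and DUSP1 is a phosphatase that switches MAP kinases off again. In the lung these genes respond to stretch, injury, inflammation and the handling of the organ between death and lysis, and the labels used here give no time from death to lysis.

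Most members are compact genes. By the GENCODE M21 annotation on GRCm38, their median span was 5287 bp (range 1522 to 56539 bp), against 24182 bp for the tested genes with a coding transcript. By these GENCODE spans Atf3 (47744 bp) and Dusp1 (56539 bp) were the exceptions, above that median of the tested genes. Both spans run upstream past the RefSeq starts used below, which lie inside them. From those starts both genes are shorter than the GENCODE spans given. The median exon number of the members was 2 (range 1 to 4), against 9. Upstream sequence was read from the RefSeq promoter table (GRCm38.p6), which held 7 of the 10 members: Fos, Fosb, Jun, Junb, Egr2, Atf3 and Dusp1. The CRE half-site TGACG, read on both strands in the 250 bases before the start, was present in 6 of these 7 genes and in 17.8% of the 32851 promoter entries in the table, or 19.8% of its 27025 gene symbols. Jun was the one without it by exact letters. Near matches were not counted, and the Jun window holds tgacatca, a near match of the full CRE. The full CRE TGACGTCA, which contains the half-site on each strand, was found in Dusp1 alone of the 7 and in 1.55% of all entries. The CArG box was found in Egr2 alone and in 1.47% of entries, the TATA box TATAAA in Fos alone and in 12.4% of entries, and the EGR site GCGNGGGCG in Fosb alone and in 4.70% of entries. The AP-1 site TGANTCA was in none of the 7 windows and in 6.75% of all entries. These are matches of letters and no measure of binding.

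The 5 windows below were picked as follows. Egr2 and Atf3 were the 2 genes that passed the test between day 14 and vehicle lungs. Fos was the pattern the other members were set against, and Dusp1 had the only full CRE. Jun had the flattest levels and no exact match of the CRE half-site. Each is the 250 bases before the RefSeq start, 5′ to 3′ on the gene's strand, at chr12:85473640-85473889 on the plus strand for Fos, chr10:67537619-67537868 on the plus strand for Egr2 (the third of 5 entries), chr1:191183334-191183583 on the minus strand for Atf3, chr17:26508473-26508722 on the minus strand for Dusp1 and chr4:95052223-95052472 on the minus strand for Jun. Capitals mark TGACG or its reverse complement CGTCA, the TATA box in Fos and the CArG box in Egr2.
Fos: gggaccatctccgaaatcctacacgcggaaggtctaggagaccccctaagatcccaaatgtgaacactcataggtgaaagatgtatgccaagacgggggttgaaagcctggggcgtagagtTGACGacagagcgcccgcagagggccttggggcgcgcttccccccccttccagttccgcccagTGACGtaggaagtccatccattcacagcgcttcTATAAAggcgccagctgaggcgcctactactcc
Egr2: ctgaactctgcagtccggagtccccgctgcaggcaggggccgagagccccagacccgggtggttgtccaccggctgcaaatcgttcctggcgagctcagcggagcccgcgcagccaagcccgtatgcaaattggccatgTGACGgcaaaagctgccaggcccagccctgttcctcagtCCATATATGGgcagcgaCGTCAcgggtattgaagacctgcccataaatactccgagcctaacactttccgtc
Atf3: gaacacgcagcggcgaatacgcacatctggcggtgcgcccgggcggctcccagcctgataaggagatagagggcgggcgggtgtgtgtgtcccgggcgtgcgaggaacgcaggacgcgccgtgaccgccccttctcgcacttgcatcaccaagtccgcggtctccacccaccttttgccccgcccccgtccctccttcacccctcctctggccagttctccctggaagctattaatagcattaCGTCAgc
Dusp1: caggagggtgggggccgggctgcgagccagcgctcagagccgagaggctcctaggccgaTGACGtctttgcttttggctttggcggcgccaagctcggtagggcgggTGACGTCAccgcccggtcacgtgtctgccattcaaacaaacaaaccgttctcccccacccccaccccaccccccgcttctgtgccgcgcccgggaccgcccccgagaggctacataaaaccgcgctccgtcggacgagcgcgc
Jun: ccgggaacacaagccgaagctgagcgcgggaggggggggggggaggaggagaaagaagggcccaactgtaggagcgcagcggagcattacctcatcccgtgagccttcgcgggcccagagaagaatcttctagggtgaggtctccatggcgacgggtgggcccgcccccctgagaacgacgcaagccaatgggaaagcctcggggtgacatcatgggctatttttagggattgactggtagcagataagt
In Fos the half-sites begin at -129 and -66 and the TATA box at -33, counted back from the start. In Egr2 the CArG box spans -72 to -63, between half-sites at -111 and -55. In Dusp1 the CRE spans -143 to -136.

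Libraries held 24138582 to 28910459 counts in the NP group, 28001006 to 36208498 in the vehicle group and 25706260 to 42714693 at day 14. The lowest count of any member in any library was 94 (Fosb) and the highest 9662 (Jun), so counting error was small beside the differences between mice. Mitochondrial mRNAs took 2.26% to 2.66% of counts in NP lungs, 2.35% to 2.47% in vehicle lungs and 2.05% to 2.27% at day 14. All 10 lung identity markers were present in every library, with Sftpc (surfactant protein C) at 30180 to 41472 TPM and Pecam1 (endothelium) at 296 to 403 TPM. Levels below are CPM, counts over the TMM-scaled library size, unless TPM is named. Because the lungs were lysed whole, fewer cells of an expressing type and less RNA per cell cannot be told apart.

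One library stood apart. Day 14 replicate 2 had the highest level of 9 of the 10 members; for Jun the highest was NP replicate 1. Its level was 2.78 times that of the next library for Egr1, 2.54 times for Fos and 2.28 times for Fosb, but 1.05 times for Atf3. Averaged over the members as log2 CPM centred on each gene's mean over the 12 libraries, day 14 replicate 2 stood at 1.47. The other day 14 libraries stood at -0.23 (replicate 1), -0.07 (replicate 3) and 0.49 (replicate 4). NP libraries stood at 0.24, 0.31, -0.32 and -0.25, against -0.12, -0.51, -0.48 and -0.54 in vehicle libraries. Results of the members that use day 14 are therefore given with and without replicate 2.

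**Figure D1:**
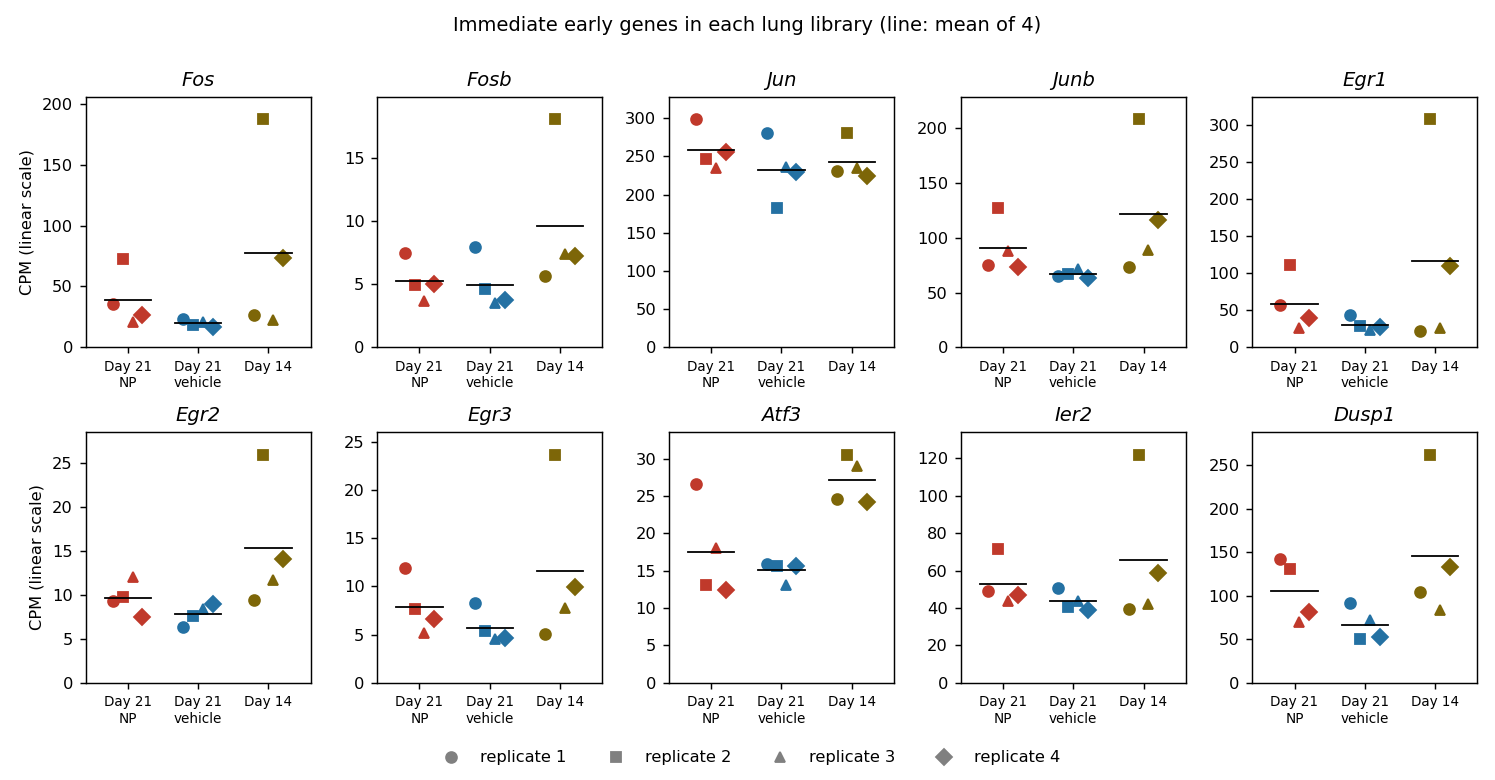
Level of each immediate early gene in every library, in CPM on a linear axis from 0, for the Day 21 NP, Day 21 vehicle and Day 14 groups; each point is 1 library, its shape gives the replicate number and the line is the mean of 4. Day 14 replicate 2 is the highest point in 9 of the 10 panels, whereas Jun differs little between libraries.

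Among the AP-1 genes, Fos, the partner of JUN proteins that gives the acutely induced form of AP-1, spanned the widest range. Fos had 35.3, 72.4, 20.9 and 26.4 CPM in NP lungs, against 23.3, 18.7, 20.9 and 16.5 CPM in vehicle lungs, and 26.2, 187, 22.7 and 73.7 CPM in day 14 lungs. The vehicle libraries sat together near the bottom of the range, and both other groups held libraries at that level as well as libraries well above it. The log2 fold change of Fos was -1.96 (SE 0.69) in vehicle against day 14 lungs, which did not pass the test (adjusted p = 0.102 in edgeR), and was -1.03 without day 14 replicate 2. Fosb, its close relative, had 7.51, 4.94, 3.67 and 5.04 CPM in NP lungs, 7.93, 4.61, 3.49 and 3.77 CPM in vehicle lungs, and 5.65, 18.1, 7.38 and 7.24 CPM at day 14. Both vehicle replicate 1 and NP replicate 1 lay above 3 of the 4 day 14 libraries for Fosb, and its log2 fold change of -0.95 (SE 0.39) in vehicle against day 14 lungs did not pass (adjusted p = 0.138), moving to -0.44 without day 14 replicate 2.

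The JUN genes behaved differently from each other. Jun, the main DNA-binding partner of FOS, had 298, 247, 235 and 256 CPM in NP lungs, 281, 183, 237 and 230 CPM in vehicle lungs, and 231, 281, 235 and 224 CPM at day 14. Its groups overlapped throughout and its highest library was 1.63 times its lowest. The log2 fold change of Jun was 0.16 (95% CI -0.10 to 0.41) in NP against vehicle lungs and -0.06 (95% CI -0.32 to 0.19) in vehicle against day 14 lungs. Junb, a JUN family member with weaker transforming activity than Jun, had 75.4, 128, 87.9 and 72.9 CPM in NP lungs, against 65.3, 66.7, 71.7 and 63.2 CPM in vehicle lungs, and 73.2, 208, 88.4 and 116 CPM at day 14. All 4 vehicle libraries lay below all 8 others, although NP replicate 4 (72.9 CPM) and vehicle replicate 3 (71.7 CPM) almost touched. Neither difference of Junb passed, at a log2 fold change of 0.45 (SE 0.30, adjusted p = 0.999) in NP against vehicle lungs and -0.86 (SE 0.30, adjusted p = 0.0936) in vehicle against day 14 lungs. Without day 14 replicate 2 its log2 fold change in vehicle against day 14 lungs was -0.46.

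Egr1, the most responsive of the EGR factors, had the largest spread of all members. It had 57.6, 110, 26.6 and 39.4 CPM in NP lungs, 43.8, 28.8, 23.4 and 26.8 CPM in vehicle lungs, and 21.8, 307, 25.4 and 110 CPM at day 14. The day 14 group thus held both the lowest and the highest Egr1 level of the 12 libraries, 14.1 times apart. The log2 fold change of Egr1 was -1.92 (SE 0.84) in vehicle against day 14 lungs (adjusted p = 0.174) and -0.76 without day 14 replicate 2.

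Egr2, known for its roles in myelination and in macrophage and T cell activation, was 1 of the 2 members that fell between day 14 and vehicle lungs. It had 9.26, 9.72, 12.03 and 7.54 CPM in NP lungs, against 6.38, 7.56, 8.41 and 8.97 CPM in vehicle lungs, and 9.48, 26.0, 11.7 and 14.1 CPM at day 14. Every vehicle library lay below every day 14 library, with a gap of 8.97 to 9.48 CPM, and the NP libraries lay across both. The log2 fold change was -0.96 (SE 0.27, adjusted p = 0.0450) in vehicle against day 14 lungs, and without day 14 replicate 2 it was -0.57 (adjusted p = 0.0476). The call was just inside the threshold: it was lost without NP replicate 1 or 2, without any 1 of the 4 vehicle replicates and without day 14 replicate 3 or 4, at an adjusted p of up to 0.129, while its log2 fold change then stayed between -0.87 and -1.07. Egr3, an EGR factor best known from T cells and muscle spindles, had 11.9, 7.60, 5.16 and 6.63 CPM in NP lungs, 8.25, 5.36, 4.56 and 4.59 CPM in vehicle lungs, and 5.01, 23.6, 7.79 and 9.92 CPM at day 14. Its groups overlapped, and its log2 fold change of -1.02 (SE 0.45) in vehicle against day 14 lungs did not pass (adjusted p = 0.172), moving to -0.40 without day 14 replicate 2.

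Atf3, a factor induced by many stresses and by injury, was the other member that fell, and day 14 replicate 2 did not stand apart in its levels. It had 26.6, 13.1, 18.0 and 12.4 CPM in NP lungs, against 15.9, 15.6, 13.1 and 15.6 CPM in vehicle lungs, and 24.6, 30.5, 29.0 and 24.2 CPM at day 14. All 4 day 14 libraries lay above all 4 vehicle libraries, and above 3 of the 4 NP libraries, NP replicate 1 being the exception. Atf3 averaged 15.1 ± 1.29 CPM in vehicle lungs and 27.1 ± 3.14 CPM in day 14 lungs (SD, n = 4 each), a log2 fold change of -0.85 (SE 0.20, adjusted p = 0.0222). The value hardly moved without day 14 replicate 2 (-0.77), but the adjusted p was then 0.0516, and it was also above the threshold without vehicle replicate 1, vehicle replicate 3 or day 14 replicate 3, at up to 0.0691. In NP against day 14 lungs the log2 fold change of Atf3 was -0.62 (SE 0.20, adjusted p = 0.0555), and without NP replicate 1 it was -0.89 (adjusted p = 0.00265).

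Ier2, a short nuclear protein gene of the serum response, had 49.3, 71.4, 43.7 and 46.8 CPM in NP lungs, 50.9, 40.7, 43.9 and 38.9 CPM in vehicle lungs, and 39.4, 122, 41.9 and 58.7 CPM at day 14. Its groups overlapped, and its log2 fold change in vehicle against day 14 lungs was -0.58 (SE 0.34, adjusted p = 0.290), and -0.08 without day 14 replicate 2. Dusp1, the MAP kinase phosphatase that is also induced by glucocorticoids, had 142, 131, 69.8 and 81.1 CPM in NP lungs, against 92.2, 49.8, 72.2 and 52.6 CPM in vehicle lungs, and 105, 262, 83.2 and 133 CPM at day 14. Vehicle replicates 2, 3 and 4 lay below every day 14 library, and vehicle replicate 1 lay above day 14 replicate 3. The log2 fold change of Dusp1 was 0.67 (SE 0.39, adjusted p = 0.999) in NP against vehicle lungs and -1.13 (SE 0.39, adjusted p = 0.0930) in vehicle against day 14 lungs, and in vehicle against day 14 lungs it was -0.67 without day 14 replicate 2.

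Strand use in the counting was not given in the sources used here, and 4 members overlap another annotated gene, so that reads of the overlapping stretch cannot be told apart. Jun (chr4:95049034-95052222, minus strand) overlaps the antisense gene Junos, which had 15 to 55 counts a library, and Junb (chr8:84974484-84978718, minus strand) overlaps Prdx2, a peroxiredoxin on the plus strand. Dusp1 (chr17:26505590-26562128, minus strand) overlaps Ergic1 on the plus strand, and Atf3 (chr1:191170296-191218039, minus strand) overlaps a small RNA gene. For Dusp1 and Atf3 the overlap is by the whole GENCODE span, which includes the stretch upstream of the RefSeq start. Prdx2 had 2715 to 5454 counts a library and Ergic1 1830 to 3271. In edgeR, Prdx2 was called lower in NP against day 14 lungs (-0.28, adjusted p = 0.0219). In vehicle against day 14 lungs Prdx2 (-0.21, adjusted p = 0.0753) and Ergic1 (-0.18, adjusted p = 0.0723) did not pass. Fos (chr12:85473890-85477273, plus strand), Fosb (chr7:19302696-19310051, minus strand), Egr2 (chr10:67535475-67542188, plus strand), Egr3 (chr14:70077203-70082614, plus strand) and Ier2 (chr8:84661331-84662852, minus strand) overlap none, and neither does Egr1.

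The effect of the nanoparticles at matched time was asked by NP against vehicle lungs. All 10 members had a positive log2 fold change in edgeR, between 0.11 (Fosb) and 0.96 (Fos), with a median of 0.37 against 0.00 for all genes tested; the sign of Fosb turned in fits on TPM and without NP replicate 1, vehicle replicate 3 or vehicle replicate 4, and that of Atf3 without NP replicate 1. By sign alone, 50.8% of all genes were above 0. None of the 10 passed the threshold (adjusted p = 0.999 each), none had an unadjusted p under 0.05, and DESeq2 called none. Of all 17909 genes, 0% were called by edgeR, 4.25% had an unadjusted p under 0.05, and DESeq2 called 19. Junb was the only member whose NP and vehicle libraries did not overlap, where 3.55% of all genes did not overlap. The intervals were wide: the 95% CI was -0.57 to 2.50 for Fos, -0.92 to 2.78 for Egr1 and -0.19 to 1.53 for Dusp1. Leaving out NP replicate 2 lowered the fold changes of Fos to 0.47, of Egr1 to 0.43, of Junb to 0.24 and of Ier2 to 0.10. Leaving out NP replicate 1 lowered that of Egr3 to 0.19 and turned Atf3 to -0.06 and Fosb to -0.12. NP replicate 2 also had the highest score of the platelet and red cell markers, 1.61 against -0.94 to 0.43 in the other 11 libraries. NP replicate 3, where these 8 markers averaged -0.56, had the lowest member score of its group. Vehicle replicate 1 was highest of its group in both scores (-0.12 for the members, 0.11 for the markers). The day 14 group differed: replicate 2, highest in member score (1.47), was at 0.17 for the markers. Day 14 replicate 1, highest of its group in the markers (0.43), had a member score of -0.23. The part of these cells in the members' levels was not tested.

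The course from day 14 to day 21 without nanoparticles was asked by vehicle against day 14 lungs, which differ in time and in the saline injections at once. All 10 members had a negative log2 fold change, with a median of -0.96 against 0.00 for all genes, of which 49.4% were below 0; the sign of Jun turned without vehicle replicate 2 (0.05) or day 14 replicate 2 (0.03). Egr2 and Atf3 fell and no member rose at an adjusted p under 0.05; 10.3% of all genes tested were called in either direction and 6.51% were called lower. The number of members called was 0 without vehicle replicate 1, vehicle replicate 3 or day 14 replicate 3, and 1 without NP replicates 1 or 2, vehicle replicates 2 or 4, or day 14 replicates 2 or 4. At an unadjusted p under 0.05 there were 8 members, all but Jun and Ier2, where 27.3% of all genes were. Junb, Egr2 and Atf3 did not overlap between the groups, where 17.9% of all genes did not overlap and 10.7% did so with vehicle lower. Without day 14 replicate 2 the median was -0.51 and Egr2 was the only member called.

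In NP against day 14 lungs, which share the day 14 libraries with the comparison above, 9 members had a negative log2 fold change and Jun a positive one (0.09, SE 0.12), where 48.9% of all genes were negative; Egr1, Egr3 and Ier2 turned positive without day 14 replicate 2. The median was -0.59 against 0.01 for all genes. No member was called by edgeR, where 14.7% of all genes were called and 8.56% were called lower; Egr2 (-0.66, SE 0.27) and Atf3 had an unadjusted p under 0.05, where 30.8% of all genes did, and DESeq2 called both. No member's groups failed to overlap, where 19% of all genes did not overlap. Without day 14 replicate 2 the median was -0.01, and values stood with Egr1 at 0.18, Egr3 at 0.07, Ier2 at 0.19, Jun at 0.18, Fos at -0.06, Egr2 at -0.27 and Atf3 at -0.55. The mean levels ran day 14 above NP above vehicle for 9 members, and NP above day 14 above vehicle for Jun. Without day 14 replicate 2 that first order remained for 6 members, with NP above day 14 for Jun, Egr1, Egr3 and Ier2. The lowest of the 12 libraries was a vehicle library for 8 members, the exceptions being Egr1 (day 14 replicate 1) and Atf3 (NP replicate 4).

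**Figure D2:**
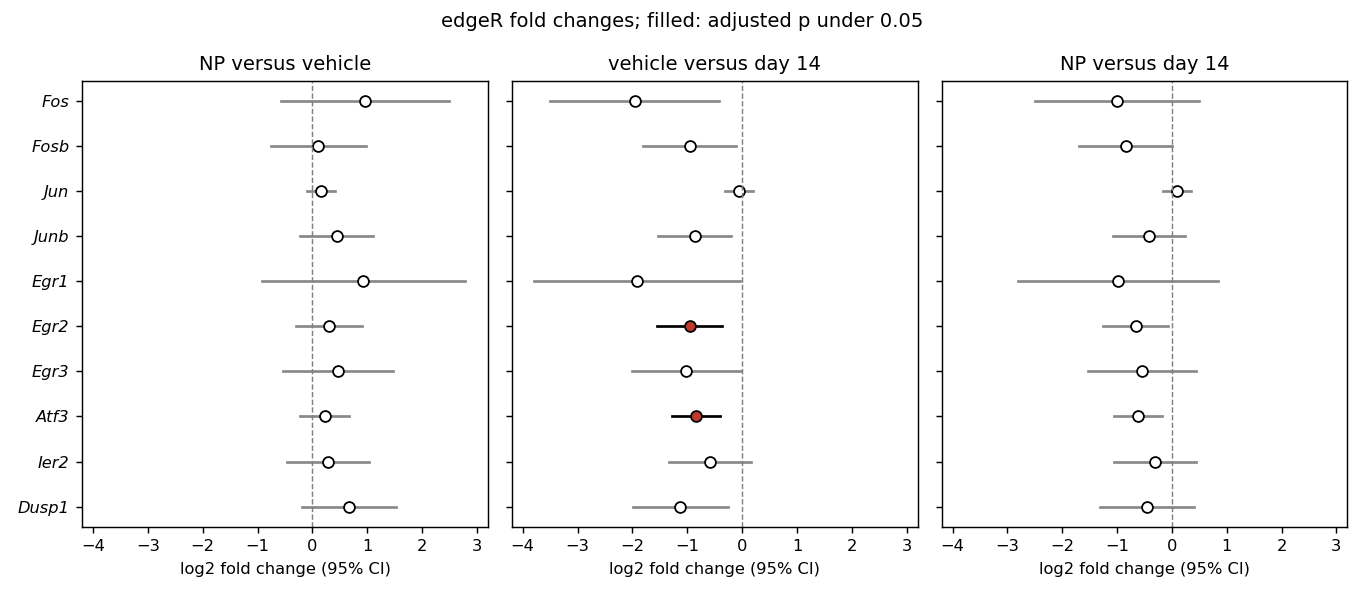
Log2 fold change of each immediate early gene in the 3 comparisons, as points with 95% confidence intervals from edgeR; filled points have an adjusted p under 0.05. With all 12 libraries, all points lie above 0 in NP against vehicle lungs and below 0 in vehicle against day 14 lungs, where Egr2 and Atf3 are filled, and the intervals of Fos and Egr1 are the widest.

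The members varied between mice of one group more than most genes did, with Jun the least. The pooled SD of log2 CPM within groups was 1.19 for Egr1 and 0.94 for Fos, above those of 99.5% and 99.1% of the genes tested. Egr3, Fosb and Dusp1 lay above 97.2%, 95.8% and 95.4% of genes, and Jun, at an SD of 0.19, above 60.5%. The median SD of the 10 members was 0.52 against 0.15 for all genes tested. By group the medians of the members were 0.46 in NP lungs, 0.23 in vehicle lungs and 0.72 at day 14, against 0.14, 0.12 and 0.16 for all genes. Without day 14 replicate 2 the pooled median was 0.38 against 0.13 for all genes. Egr1, Fos, Egr3, Dusp1 and Fosb then lay above 98.9%, 97.5%, 92.1%, 90.4% and 89.8% of genes. Ier2 moved from 92.3% to 75.3%, Junb from 89.8% to 77.4% and Egr2 from 88.0% to 73.6%. Jun (61.9%) and Atf3 (79.4% to 81.6%) moved slightly up.

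**Figure D3:**
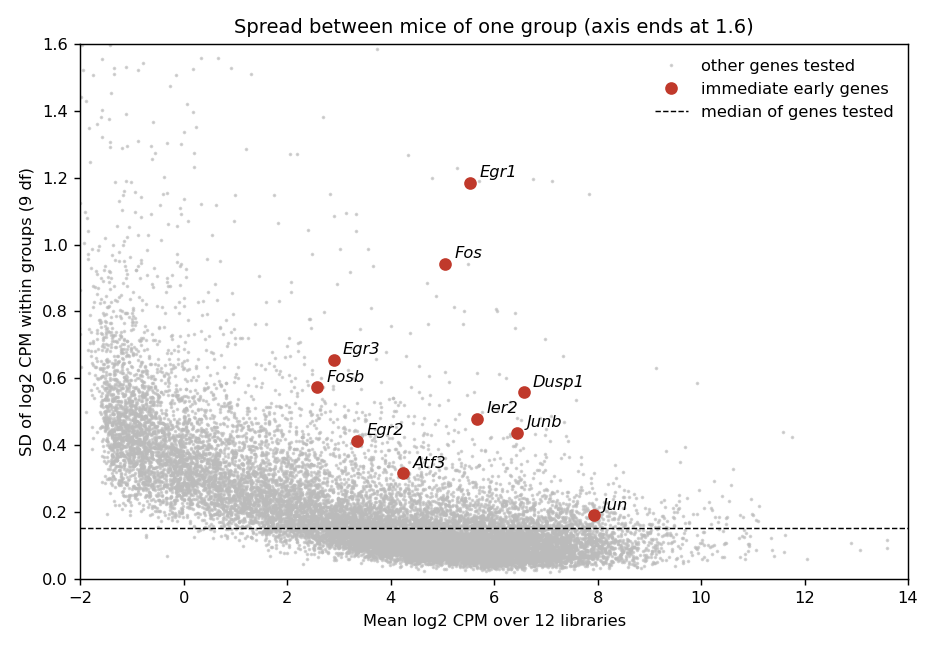
Spread between libraries of one group (pooled SD of log2 CPM over 9 degrees of freedom) against the mean log2 CPM over 12 libraries, for all genes tested (grey) and the 10 immediate early genes (red). Egr1 (1.19) and Fos (0.94) stand far above the median of all genes (0.15), and Jun (0.19) is the member nearest to it.

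Compared per length, Jun was the most abundant member in both day 21 groups, at 131 ± 15.3 TPM in NP lungs and 118 ± 21.4 TPM in vehicle lungs (SD, n = 4 each). At day 14 Dusp1 was first at 133 ± 72.5 TPM, and Jun was next at 122 ± 11.8 TPM. That place of Dusp1 rested on day 14 replicate 2, where it had 236 TPM and Jun 140 TPM. In day 14 replicates 1, 3 and 4 Dusp1 had 92.0, 75.2 and 127 TPM, against 114, 119 and 116 TPM for Jun. Dusp1, Junb and Ier2 filled the places after Jun in both day 21 groups, then Fos, Egr1 and Atf3. Egr2, Egr3 and Fosb were the least abundant in every group, at means of 2.40 to 5.35 TPM in NP lungs, 2.46 to 4.46 TPM in vehicle lungs and 4.58 to 8.395 TPM at day 14. Most neighbours in this order overlapped; the step from Atf3 down to Egr2 was the only one without overlapping ranges in each of the 3 groups. In vehicle lungs the steps from Jun to Junb and from Ier2 to Fos did not overlap either.

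**Figure D4:**
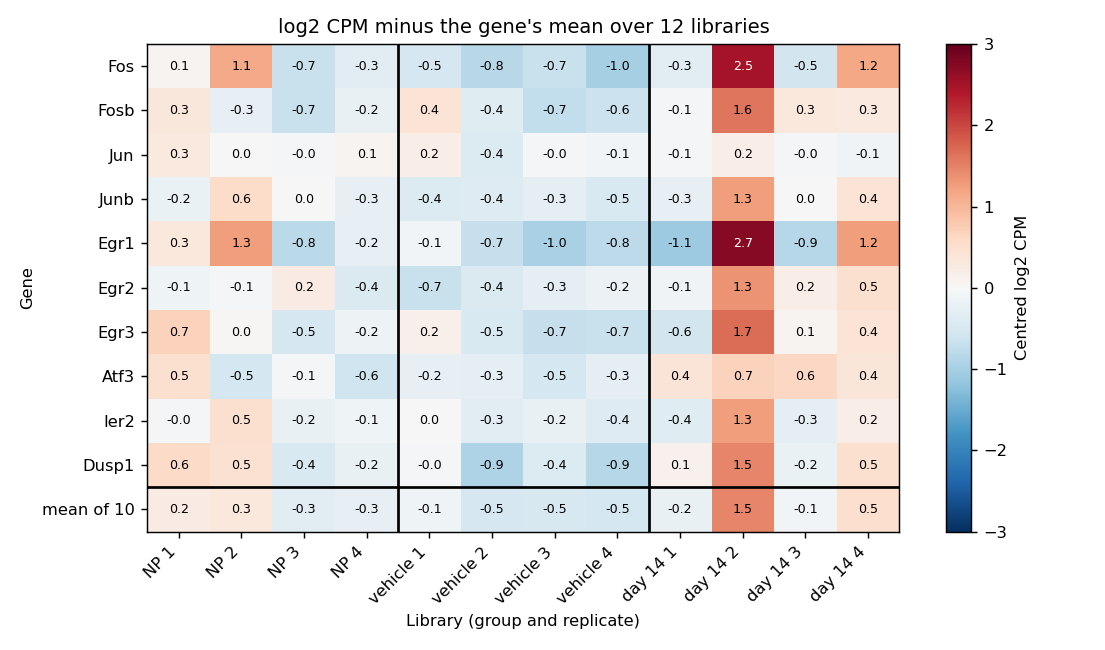
Log2 CPM of each immediate early gene minus its own mean over 12 libraries, in the NP, vehicle and day 14 libraries, with the mean of the 10 genes in the bottom row. Day 14 replicate 2 is the high column (mean 1.47), Jun is the palest row, and Atf3 is above its mean in all day 14 libraries.

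The members did not all follow one pattern over the libraries. Measured by the mean absolute difference of centred log2 CPM from Fos over the 12 libraries, Egr1 was nearest (0.26), followed by Dusp1 (0.41), Junb and Egr3 (0.48 each), Ier2 (0.50), Fosb (0.54) and Egr2 (0.58). Atf3 (0.76) and Jun (0.78) were farthest, with 8.93% and 16.4% of the genes tested nearer to Fos than they were; the median over the 13254 genes eligible to be named was 0.82. Outside the members, the 6 genes with the smallest difference from Fos were Ccn1 (0.40), Zfp36 (0.48), Rgs1 (0.49), Nr4a1 (0.51), Btg2 (0.52) and Kcne4 (0.59). Ccn1 encodes a matricellular protein, Zfp36 an mRNA decay factor, Rgs1 a regulator of G protein signalling, Nr4a1 an orphan nuclear receptor, Btg2 an antiproliferative factor and Kcne4 a potassium channel subunit. Each of the 6 was highest in day 14 replicate 2, for example at 435 CPM for Ccn1, where the next library had 196 CPM, and at 187 CPM for Nr4a1, where the next had 94.8 CPM. They were picked for nearness to Fos, which was itself highest in that library, so this peak is no separate result. The order by nearness is given with that library included.

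Other genes of the same response were read from lists. Of 25 further primary response genes, 5 fell and none rose in vehicle against day 14 lungs, with a median log2 fold change of -0.41, where 6.51% of all genes were called lower. The 4 largest were Nfil3, a bZIP repressor (-0.92, SE 0.17, adjusted p = 0.00596), Socs3, a cytokine signalling inhibitor (-0.90, SE 0.19, adjusted p = 0.0131), Myc, a growth regulator (-0.59, SE 0.14, adjusted p = 0.0179), and Sik1, a cAMP-induced kinase (-0.40, SE 0.11, adjusted p = 0.0358). Nfil3 and Socs3 kept their calls with each of the 12 libraries left out in turn, that of Myc was lost without day 14 replicate 3 (0.0685), and Sik1 lost it in 6 of the 12 fits (up to 0.0965), those without vehicle replicates 2, 3 or 4 or day 14 replicates 1, 2 or 3. In NP against day 14 lungs 3 of the 25 fell, where 8.56% of all genes were called lower, with a median of -0.32: Gadd45g, a growth arrest gene (-0.84, SE 0.24, adjusted p = 0.0352), Socs3 (-0.62, SE 0.18, adjusted p = 0.0440) and Myc (-0.46, SE 0.14, adjusted p = 0.0389). These were fragile: the call was lost in 5 of the 12 fits for Gadd45g (up to 0.0967), 6 for Myc (up to 0.121) and 11 for Socs3 (up to 0.119), each time including those without NP replicates 1, 2 or 4 or day 14 replicates 1 or 3. In the fit of 2 groups none of the 25 was called, with an adjusted p of up to 0.134 for these 3. The 25 genes differed from the members in one respect: the scores of all 4 day 14 libraries, 0.12 to 0.39, lay above those of the NP libraries (-0.19 to 0.10) and the vehicle libraries (-0.27 to -0.04), with day 14 replicate 2 again highest.

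Of 9 tested EGR, NR4A and KLF factors outside the members, Nr4a2, an orphan nuclear receptor, fell in vehicle against day 14 lungs (-0.61, SE 0.15, adjusted p = 0.0240), a call lost in 5 of the 12 fits that left out 1 library (vehicle replicates 2 or 4, day 14 replicates 1, 2 or 3; up to 0.0659). None of the 9 passed in NP against day 14 lungs. Of all genes tested, 10.3% were called in vehicle against day 14 lungs and 14.7% in NP against day 14 lungs. Of 11 tested AP-1 and ATF subunits none passed in vehicle against day 14 lungs, and Atf2, a constitutive CRE-binding factor, rose in NP against day 14 lungs (0.22, SE 0.06, adjusted p = 0.0221; 0.0608 without NP replicate 4). The call of Atf2 was also lost without a filter, in the fit of 2 groups and by limma-trend at either pseudocount, at an adjusted p of up to 0.0932. Of the 19 tested serum response and MAP kinase genes, the kinase Map2k2 fell in vehicle against day 14 lungs (-0.22, SE 0.06, adjusted p = 0.0340) and in NP against day 14 lungs (-0.19, SE 0.06, adjusted p = 0.0463), calls lost in 8 (up to 0.112) and 10 (up to 0.134) of the 12 fits. The JNK gene Mapk9 rose in NP against day 14 lungs (0.23, SE 0.05, adjusted p = 0.0137; 0.0511 without day 14 replicate 3). None of the 9 further MAP kinase phosphatases and none of the 6 EGR corepressors and mRNA decay factors passed in any comparison. In NP against vehicle lungs none of these lists had a gene past the threshold.

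Lists that can also move with handling, stress hormones, oxygen or time of day were read beside the members. Of all genes tested, 10.3% were called in either direction in vehicle against day 14 lungs and 6.51% were called lower. In NP against day 14 lungs these shares were 14.7% and 8.56%. Of 10 heat shock genes 6 fell in vehicle against day 14 lungs, among them the chaperones Hspa8 (-0.62, SE 0.13, adjusted p = 0.0112), which kept its call in all 12 fits, and Hspa1a (-1.18, SE 0.31, adjusted p = 0.0354) and Hspa1b (-1.34, SE 0.36, adjusted p = 0.0399), near-identical copies between which reads are uncertain and whose calls were each lost in 6 fits (all vehicle replicates and day 14 replicates 1 and 3; up to 0.106). The calls of Dnajb1, Hsp90aa1 and Hspb1 in that comparison were lost in 7 (up to 0.108), 6 (up to 0.112) and 4 (up to 0.0724) fits. In NP against day 14 lungs 3 of the 10 fell, Hspa8 (-0.57, SE 0.13, adjusted p = 0.0122) keeping its call in all 12 fits. Dnajb1 and Hspb1 lost theirs in 8 (up to 0.116) and 7 (up to 0.108). Of 10 glucocorticoid response genes 3 fell in vehicle against day 14 lungs and 3 in NP against day 14 lungs. The metallothionein Mt1 was -0.82 (SE 0.16, adjusted p = 0.0102) and -0.88 (SE 0.16, adjusted p = 0.00511) in these comparisons and kept both calls in all 12 fits. Mt2 fell in both as well and lost its call in vehicle against day 14 lungs in 2 fits (up to 0.0552). Less firm were Sgk1 in vehicle against day 14 lungs, lost in 4 fits (up to 0.0646), and Ddit4 in NP against day 14 lungs, lost in 5 (up to 0.0821). The libraries that led these lists were not the one that led the members. The heat shock score was highest in day 14 replicate 3 (0.74) and replicate 1 (0.38), with day 14 replicate 2 at 0.01. The glucocorticoid score was highest in day 14 replicate 1 (1.19) and replicate 3 (0.73), with day 14 replicate 2 at 0.07. Of 10 tested hypoxia genes, 1 rose and 1 fell in vehicle against day 14 lungs and 3 rose in NP against day 14 lungs, and of 12 clock genes 1 rose and 1 fell in each. In NP against vehicle lungs none of these genes passed. Their part in the members' levels was not tested.

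**Figure D5:**
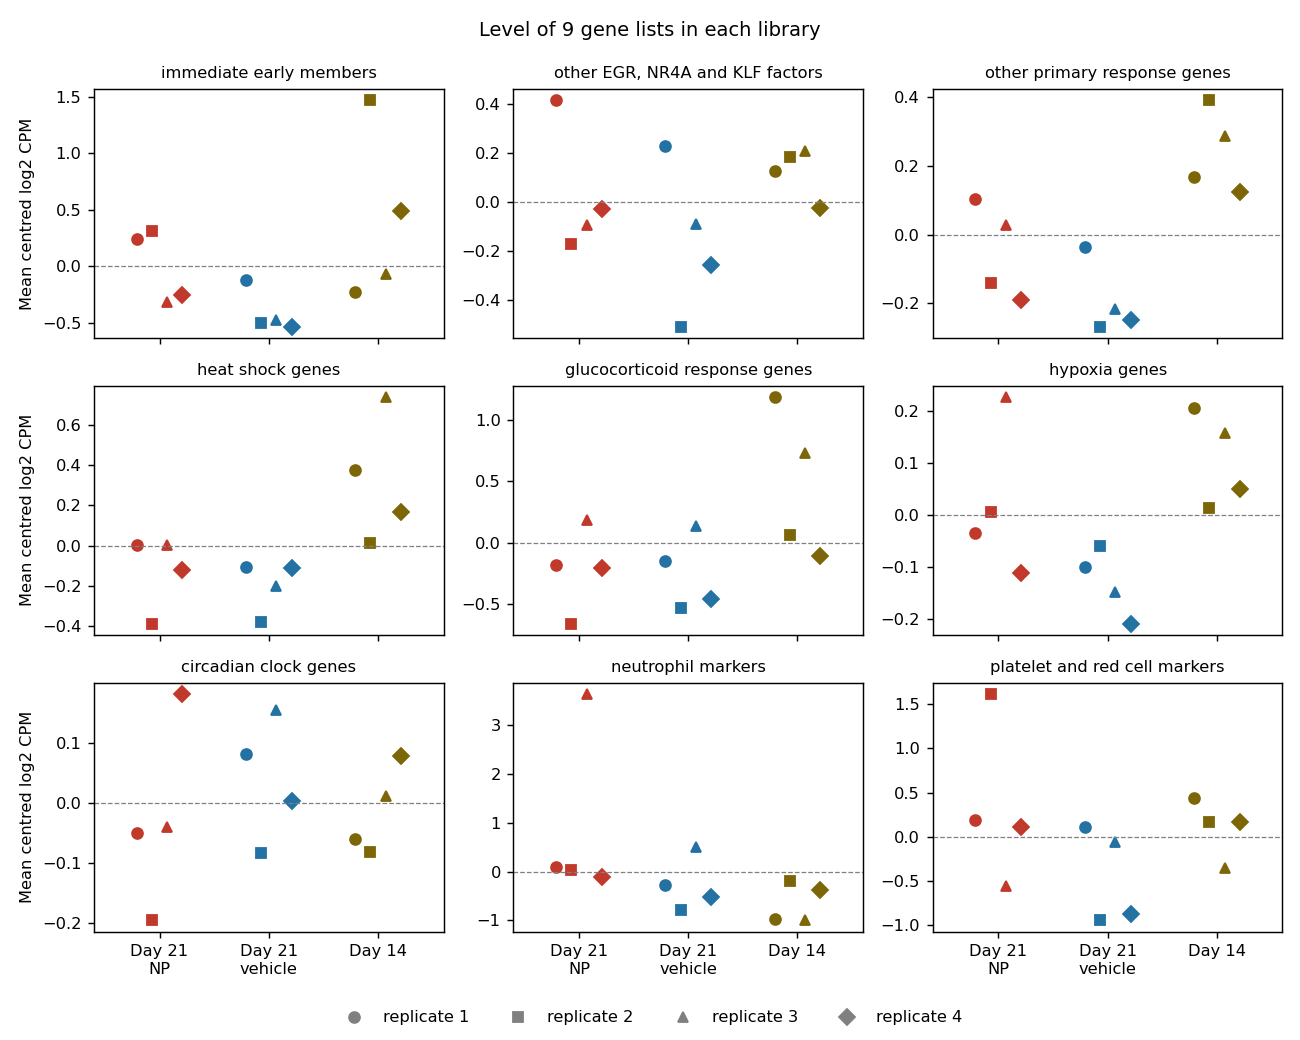
Score of 9 gene lists in every library, the mean over the list's genes of log2 CPM centred over 12 libraries, by group; each point is 1 library and each panel has its own axis. Day 14 replicate 2 is highest for the immediate early genes (1.47), while day 14 replicate 3 (0.74) leads the heat shock genes and day 14 replicate 1 (1.19) the glucocorticoid response genes.

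Cell markers also differed between libraries. The summed level of 7 neutrophil markers was 89.0 to 1125 CPM in NP lungs, 58.3 to 139 CPM in vehicle lungs and 41.7 to 84.3 CPM at day 14, the top value being that of NP replicate 3. The 8 platelet and red cell markers summed to 166 to 2425 CPM in NP lungs, 162 to 418 CPM in vehicle lungs and 385 to 1015 CPM at day 14. The sum follows haemoglobin more than platelets: Hbb-bs reached 34278 counts, the platelet gene Ppbp 474. In NP against day 14 lungs edgeR called 3 of the 8 higher, where 1103 of 17909 genes were: Ppbp, Itga2b and Gp9 (adjusted p = 0.00766, 0.0117 and 0.0165). Ppbp and Itga2b kept their calls in all 12 fits and Gp9 lost its call in 2 (up to 0.0572). The 9 macrophage markers summed to 1177 to 2991 CPM in NP lungs, 1325 to 1798 CPM in vehicle lungs and 2360 to 2722 CPM at day 14. In vehicle against day 14 lungs, the comparison in which Egr2 and Atf3 fell, 4 of the 9 macrophage markers fell as well: Spp1 (-0.95, SE 0.23, adjusted p = 0.0276), C1qa (-0.81, SE 0.18, adjusted p = 0.0157), Cd68 (-0.61, SE 0.13, adjusted p = 0.0130) and Itgax (-0.39, SE 0.10, adjusted p = 0.0253). Cd68 kept its call in all 12 fits, C1qa lost it in 2 (vehicle replicate 1, day 14 replicate 3; up to 0.0538), Spp1 in 4 (vehicle replicates 1 or 3, day 14 replicates 2 or 3; up to 0.0825) and Itgax in 4 (vehicle replicates 1 or 3, day 14 replicates 1 or 3; up to 0.0821). In NP against day 14 lungs, where edgeR called no member, it called 3 of the 9 macrophage markers lower. These were Spp1 (adjusted p = 0.00871), C1qa (adjusted p = 0.0227) and Itgax (adjusted p = 0.0279). Spp1 kept that call in all 12 fits, C1qa lost it in 5 (up to 0.0683) and Itgax in 3 (up to 0.0850). Of all genes tested, 6.51% were called lower in vehicle against day 14 lungs (10.3% in either direction) and 8.56% in NP against day 14 lungs. The 8 fibroblast markers summed to 2970 to 3274 CPM in NP lungs, 3274 to 3537 CPM in vehicle lungs and 3688 to 4348 CPM at day 14. Of these 8, 4 had a positive and 4 a negative log2 fold change in vehicle against day 14 lungs. The alveolar fibroblast gene Inmt rose (0.75, SE 0.14, adjusted p = 0.00720), and Col1a1 (-0.94, SE 0.15, adjusted p = 0.00313) and Col3a1 (-0.55, SE 0.15, adjusted p = 0.0366), both fibrillar collagens, and Lum, a matrix proteoglycan (-0.42, SE 0.12, adjusted p = 0.0432), fell. Inmt and Col1a1 kept their calls in all 12 fits, Col3a1 lost its call in 6 (vehicle replicates 1, 3 or 4, day 14 replicates 2, 3 or 4; up to 0.118) and Lum in 8 (NP replicate 4, vehicle replicates 1, 3 or 4, any day 14 replicate; up to 0.139). In NP against day 14 lungs edgeR called 4 of the 8 fibroblast markers lower and 1 higher. Each of these calls was kept in all 12 fits. No marker of these lists was at 0 in every library. The part of these cell types in the levels of Egr2 and Atf3 was not tested.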

How the data were processed

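Whole lungs without large airways were lysed in TRIzol, and their polyA RNA was read in pairs of 151 bp (per the labels' protocols). Tools listed in the submitters' processing notes were RSEM 1.3.3, STAR 2.7.8a, cutadapt 4.8, MultiQC 1.20 and FastQC 0.11.8, on build GRCm38. The annotation release and the strand setting are not given in the sources used here. Per the labels and headers, the deposited expected counts were whole numbers per gene and library, and the deposited TPM values were scaled for length within each library by the authors; FPKM values were not used. Replicates were the labelled mice, and 0 columns lacked a label.

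Counts were filtered with filterByExpr (minimum count 10, minimum total 15), scaled with TMM and tested with edgeR 4.0.16 in R 4.3.3 (quasi-likelihood, robust, 1 fit of 12 libraries, group term only, two-sided), with Benjamini-Hochberg adjustment over all 17909 genes tested and a threshold of 0.05; 21736 entries had no count. The common biological coefficient of variation was 0.119. Within groups, chi-square per degree of freedom between libraries was 8.17 to 33.7, so none was a duplicate. CPM used TMM-scaled sizes and log2 CPM a prior count of 2. A CPM of 3 counts was 0.0719 to 0.125. DESeq2 1.42.0, RLE factors, no filter, fits of 2 groups, limma-trend (limma 3.58.1) on log2(TPM + 0.1) and log2(TPM + 1), a replicate block and each library left out were the alternatives. The scripts were tested on simulated data.

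Members and lists were chosen with earlier results of these data known. All 10 members are described. From other lists up to 4 genes past the threshold are named by the size of their fold change, and the 6 genes nearest to Fos are named among those with an average log2 CPM of at least 1. The marker and handling genes given with a fold change are fewer than this rule allows and are not always those with the largest.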

Additional observations from a re-analysis of the deposited data

Results flagged for a closer look

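Values of a single library that lay far from the other 3 of its group were looked for in 84 groups of 4, of which 30 were the CPM values of the members; 4 were found, and chance alone gives about 1 in 20 groups. Fosb in day 14 replicate 2 had 18.1 CPM, where the next library of the group had 7.38 CPM and the lowest 5.65 CPM. Atf3 in vehicle replicate 3 had 13.1 CPM, where the next had 15.6 CPM and the highest 15.9 CPM. The score of the 10 immediate early genes in vehicle replicate 1 was -0.12, where the next was -0.48 and the lowest -0.54. The score of the neutrophil markers in NP replicate 3 was 3.63, where the next was 0.09.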

How the results depend on the processing

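Leaving out 1 library at a time gave 0 genes called in NP against vehicle lungs each time, 719 to 2162 (1845 with all) in vehicle against day 14 lungs and 1363 to 2934 (2636 with all) in NP against day 14 lungs, with 0 to 2 members and 0 to 1 members called in the last 2 comparisons. The median of the members in NP against day 14 lungs was -0.74 to -0.010. In NP against vehicle lungs DESeq2 called 19 genes. In vehicle against day 14 lungs limma-trend called 995 genes (log2(TPM + 0.1)) and 1051 (log2(TPM + 1)); 5 members were called by DESeq2 (Fos, Junb and Dusp1 beside Egr2 and Atf3), 0 without a filter, and 1 each by the fit of 2 groups, by limma-trend at either pseudocount and with the replicate block. In NP against day 14 lungs the fit of 2 groups called 1672 genes and limma-trend 1577 and 1607; DESeq2 called 2 members, and limma-trend 1 at either pseudocount. In NP against vehicle lungs Fosb was -0.048 and -0.047 by limma-trend at the pseudocounts 0.1 and 1 and -0.12 to 0.42 with 1 library left out, and Atf3 was -0.058 to 0.36. Jun was -0.16 to 0.047 in vehicle against day 14 lungs. In NP against day 14 lungs Egr1 was -1.49 to 0.18, Egr3 -0.83 to 0.074 and Ier2 -0.50 to 0.19. Egr2 lost its call in vehicle against day 14 lungs in 13 of 19 alternatives and Atf3 in 5. Without a filter or by limma-trend, 3 heat shock genes were called in vehicle against day 14 lungs (6 in the test reported), and in NP against day 14 lungs 1 was (3 reported), as in the fit of 2 groups. Other calls named were also lost in vehicle against day 14 lungs. Without a filter this held for Hspa1a, Hspa1b, Dnajb1, Map2k2, Mt2, Col3a1, C1qa and Spp1. By limma-trend it held at either pseudocount for Hspa1b, Dnajb1, Hsp90aa1, Map2k2, Nr4a2, Sgk1, Lum and Itgax and at 0.1 for Myc. The replicate block lost Spp1 and Lum, and the fit of 2 groups lost Hsp90aa1. Of the 7 other fits in NP against day 14 lungs, Map2k2 was called by 1, Dnajb1 and Hspb1 by 3 each and Gadd45g by 4. Socs3, Ddit4, Itgax and Itga2b were called by 5 each, and Myc and C1qa by 6 each. The cause was not tested. Same-numbered libraries of different groups correlated at -0.07 to 0.15, over 0.1 in 2 of 12 pairs. Differently numbered libraries were not set beside them, so these values cannot tell whether the numbers pair samples. The labels state no pairing, and none was used in the test reported. With the replicate block in edgeR, Egr2 had an adjusted p of 0.0544 in vehicle against day 14 lungs.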
